A study of Mus musculus with 8 samples.

Results

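The genes described here are 5 keratins (Krt7, Krt8, Krt18, Krt19 and Krt20), the adhesion molecule Epcam and 4 cadherins (Cdh1, Cdh2, Cdh16 and Cdh17). They were chosen by gene symbol, and all 10 were found among the 52195 genes of the deposited expression table. Polyadenylated RNA of whole kidney, lung, liver and small intestine was sequenced, with 2 libraries per tissue and 8 libraries in all. The mice were male C57BL/6J animals (C57BL/6 in the labels), an inbred laboratory strain, at an age of 6 to 10 weeks, and neither treatment nor allele is named for any group. The libraries of a tissue came from separate mice. Each mouse gave all 4 tissues, but the labels do not tie a library to a mouse.

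Keratins are the intermediate filament proteins of epithelial cells, and each filament is assembled from pairs of a type I and a type II chain. Krt7 and Krt8 are type II keratins, and Krt18, Krt19 and Krt20 are type I keratins, all known from the single-layered epithelia of inner organs. Classical cadherins such as Cdh1 (E-cadherin) and Cdh2 (N-cadherin) join neighbouring cells at adherens junctions and bind catenins inside the cell. Cdh16 and Cdh17 are cadherins with a short cytoplasmic tail, known from kidney tubules and from intestinal epithelium. Epcam is a cell adhesion glycoprotein of many epithelia and is known to be nearly absent from adult hepatocytes.

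Levels are given in FPKM, the fragments of a gene scaled to transcript length and to the depth of the library. The reads behind the values were recovered from their steps, which place the total behind each library at between 9164187 and 21444675 reads. Of the 80 values of these genes (10 genes in 8 libraries), 50 came out whole within 0.02 reads. Of the 24 that rested on fewer than 50 reads 22 did so. The values that did not come out whole were all of Krt7, Krt8, Krt18 and Epcam, and their read numbers are approximate. The smallest read number, for Cdh16 in small intestine replicate 2, was 2 reads and lies below the floor of 3 reads used here, which covers counting error only. In bulk RNA, fewer cells of a type and less RNA per cell cannot be told apart. Differences were tested with limma on log2(FPKM + 1) over 16328 genes, by setting a tissue against the mean of the remaining 3, and a gene was called at an adjusted p below 0.05 and an absolute log2 difference above 1. Such a difference understates the change of genes at low FPKM.

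Some measured properties of the libraries touch these genes. The medians of all 16328 genes lay at log2 differences of 0.82 for lung, -0.34 for kidney, -0.01 for small intestine and -0.72 for liver, and with median-of-ratios scaling they lay at -0.02, -0.11, -0.06 and -0.13. That scaling moved the share of higher genes among all genes called from 83.1% to 47.9% in lung, from 16.7% to 46.9% in liver, from 35.0% to 48.7% in kidney and from 54.9% to 52.5% in small intestine. The kidney libraries differed with transcript length: genes with 8000 or more exonic bases were 1.82-fold higher in replicate 1 than in replicate 2 (median of 1105 genes), while genes under 2000 bases stood at 0.923-fold (2541 genes). In the other tissues the medians of the length classes were between 0.911 and 1.21. Marker genes of the labelled tissues were high there. The summed FPKM of 5 proximal tubule genes was 1365 and 930.0 in kidney and at most 9.33 elsewhere, and that of the 5 lung epithelial genes was 59571 and 73260 in lung and at most 90.3 elsewhere. Hepatocyte genes summed to 45545 and 39985 in liver and at most 520.0 elsewhere, and enterocyte genes to 5964 and 8191 in small intestine and at most 165 elsewhere.

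The 10 genes separated the tissues in different directions. In small intestine 7 of 10 were called higher (Krt8, Krt18, Krt19, Krt20, Epcam, Cdh1 and Cdh17) and 2 lower (Cdh2 and Cdh16), where 13.7% of all genes tested were called higher and 11.3% lower. In liver 2 were called higher (Krt18 and Cdh2) and 7 lower (Krt7, Krt19, Krt20, Epcam, Cdh1, Cdh16 and Cdh17), where 6.56% of all genes were called higher and 32.7% lower. In kidney 1 was called higher (Cdh16) and 5 were called lower (Krt8, Krt18, Krt19, Krt20 and Cdh17), against 8.65% and 16.1% of all genes. In lung 3 were called higher (Krt7, Krt19 and Cdh1) and 2 lower (Krt20 and Cdh17), against 40.7% and 8.26% of all genes. With median-of-ratios scaling the counts were the same in kidney, liver and small intestine, and in lung 2 were called higher and 5 lower. There Cdh1 was no longer called (0.03), and Krt8 (from -0.71 to -1.87), Epcam (from -0.18 to -1.25) and Cdh16 (from -0.86 to -1.60) became called lower. The shares of all genes called higher and lower were then 14.7% and 16.0% in lung, 12.3% and 13.9% in liver, 11.5% and 12.1% in kidney, and 13.0% and 11.73% in small intestine.

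The median log2 difference of the 10 genes was 3.0 in small intestine, -0.24 in lung, -1.64 in kidney and -2.58 in liver. All 10 passed the filter on low values (2 or more libraries at an FPKM of 1 or above), but Cdh2 passed through liver alone, Cdh17 through small intestine alone, and Krt20 through small intestine and 1 lung library, so these counts and medians are descriptions. A lower call of these 3 genes in another tissue restates their height where they passed, as for Krt20 and Cdh17 in lung, kidney and liver and Cdh2 in small intestine, and no p is given for the 3 against the mean of the remaining tissues. Cdh16 passed through kidney and lung, but its lower calls in liver and small intestine are likewise against a mean that includes kidney (205 FPKM, against 2.83 in lung). A single gene can reach a two-sided p of no less than 0.0357 in the exact permutation test, with 28 ways to choose 2 of 8 libraries. That value was reached by Krt7 in liver, Krt8 in small intestine, Krt18 in kidney, Krt19 and Epcam in small intestine, Cdh1 in liver, and Cdh16 in kidney.

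**Figure D1:**
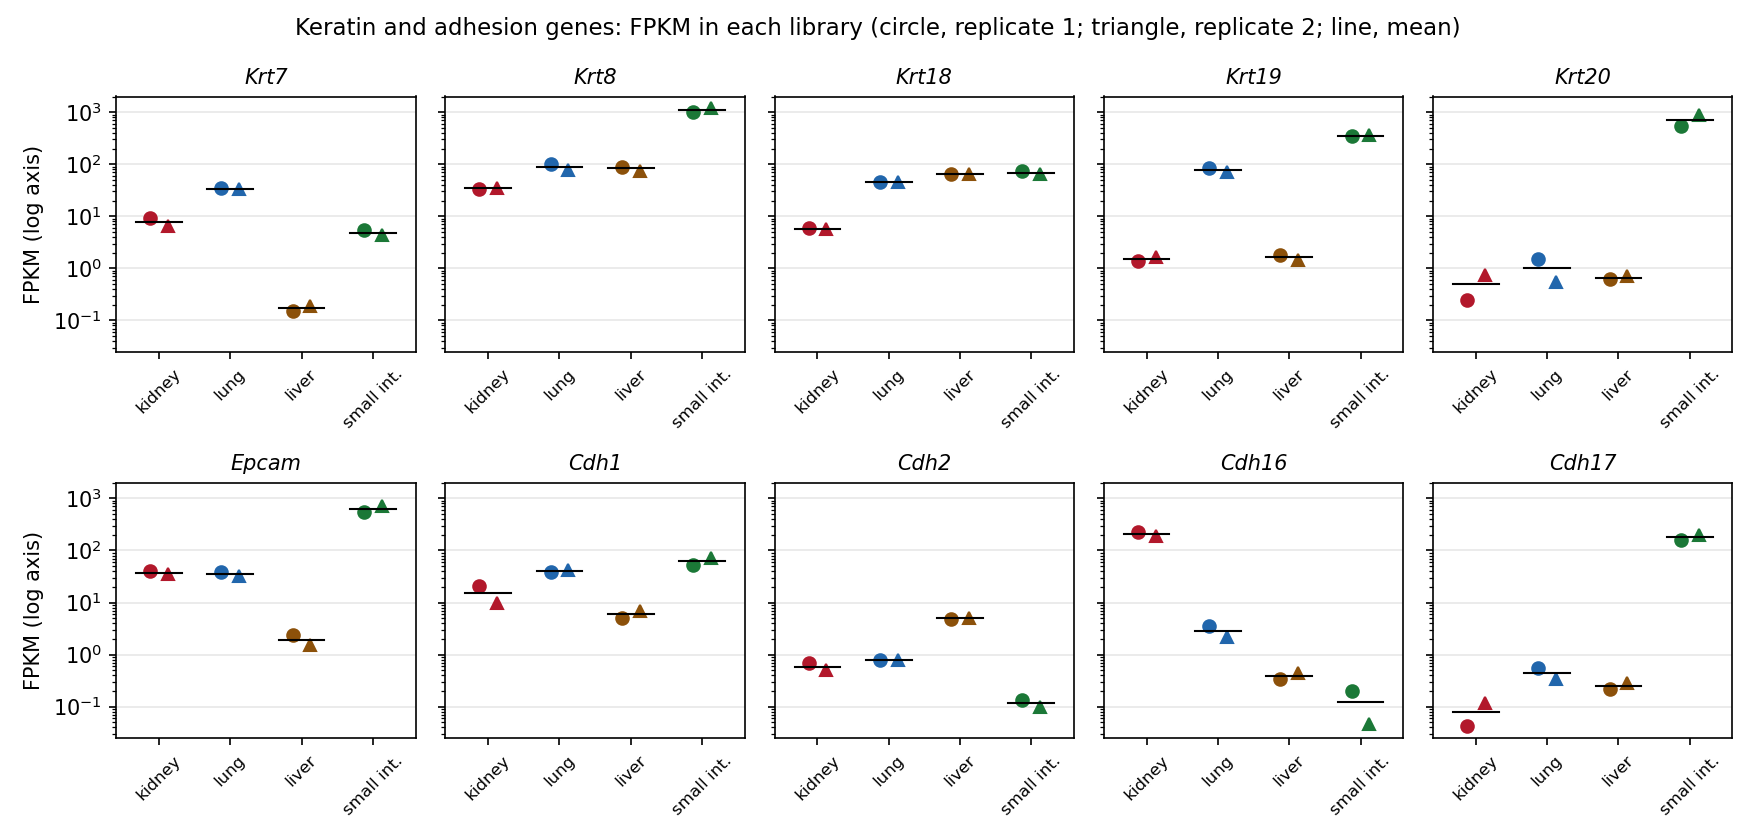
FPKM of the 10 genes in each of the 8 libraries, on a log axis, with 1 panel per gene, circles for replicate 1, triangles for replicate 2 and a line at the mean of each tissue. Krt20 and Cdh17 stand above 100 FPKM in small intestine and below 2 FPKM in all other libraries, Cdh16 does so for kidney with at most 3.48 FPKM elsewhere, and Krt18 is low in kidney alone.

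**Figure D2:**
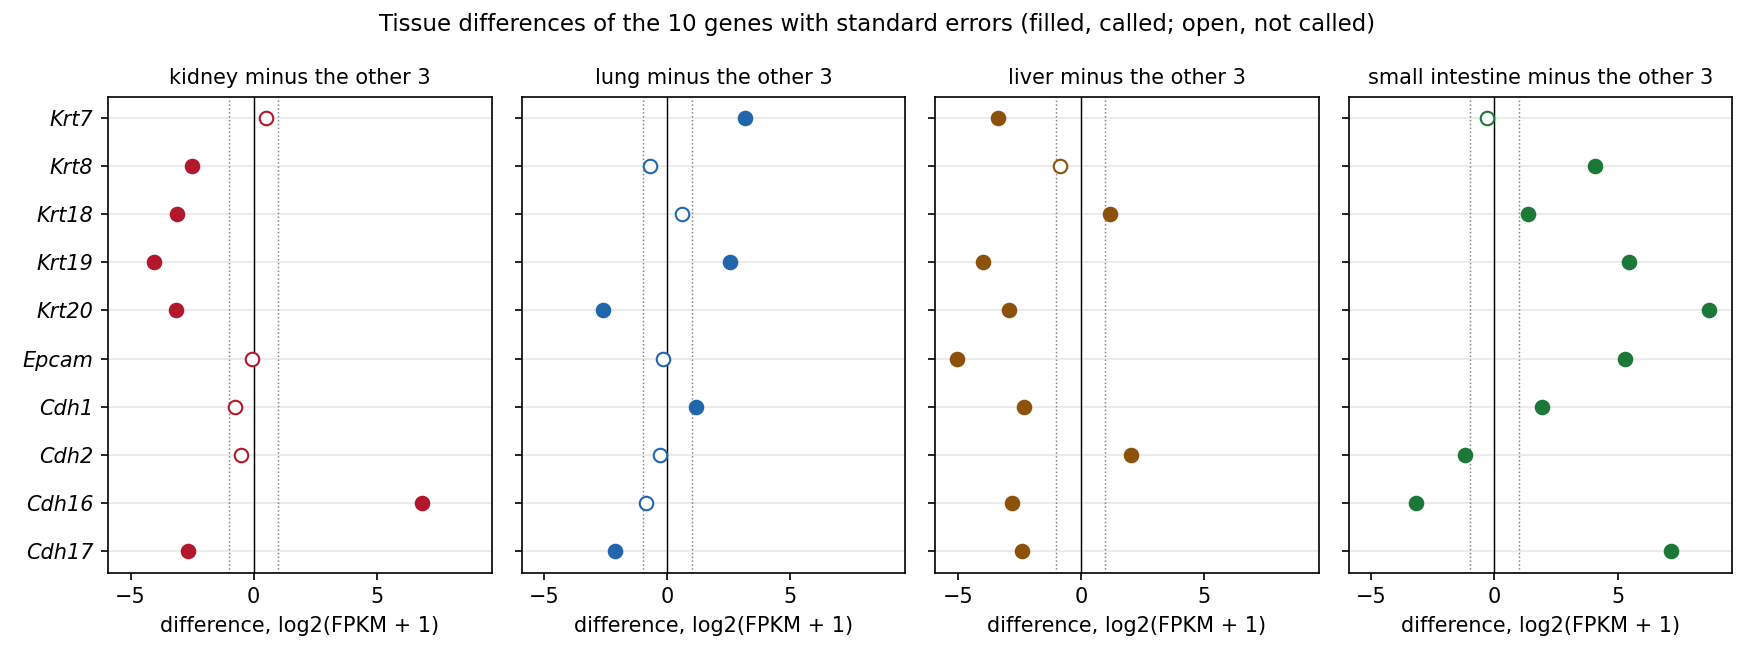
Log2 difference of each gene between a tissue and the mean of the other 3, on the log2(FPKM + 1) scale, with 1 panel per tissue. Filled points are called, open points are not, bars are standard errors (mostly narrower than the points) and dotted lines mark a difference of 1. Small intestine holds 7 filled points to the right of 0 and liver holds 7 to the left.

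Tissues that stood next to each other in the order of a gene's mean FPKM were compared pair by pair, which gives 30 neighbouring pairs for the 10 genes. Of these, 16 were called and 14 were not. Of the 16, 3 restate the tissue through which a gene passed the filter (Krt20 and Cdh17 in small intestine over lung, and Cdh2 in liver over lung). Over all genes tested, in either direction, the share called was 50.3% between kidney and lung, 23.1% between kidney and liver, 29.5% between kidney and small intestine, 62.7% between lung and liver, 40.6% between lung and small intestine, and 36.2% between liver and small intestine. Those shares hold for fixed pairs of tissues, whereas the neighbours follow each gene's own order. The count of 16 is therefore a description.

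Krt7 was the only one of the 5 keratins with its highest level in lung. The gene lies on chromosome 15 (101411043 to 101430313, plus strand, GRCm38) and encodes a type II keratin of ducts, airways and mesothelium. Its FPKM was 35.1 and 33.1 in lung, 9.43 and 6.44 in kidney, 5.36 and 4.39 in small intestine, and 0.155 and 0.192 in liver. Both lung libraries lay above all others and both liver libraries below all others. The lung mean of 34.1 ± 1.43 FPKM (SD, n = 2) was 4.30-fold the kidney mean and 196-fold the liver mean. In limma the lung difference was 3.16 ± 0.17 (log2, SE; adjusted p = 2.40e-06) and the liver difference was -3.38 ± 0.17 (adjusted p = 2.66e-06). Kidney and small intestine, the middle pair of the order, did not pass the fold threshold (0.59 ± 0.20, adjusted p = 0.0472), although their libraries did not overlap. That pair was called (1.05) when mitochondrial genes were left out and all libraries scaled to the same sum, a setting named below as without mitochondrial genes. The step from lung to kidney was called (1.99 ± 0.20, adjusted p = 7.81e-05), but not with median-of-ratios scaling (0.95). Krt7 in kidney against the other 3 tissues stood at 0.50, under the fold threshold, and was called at a pseudocount of 0.1 (1.14), without mitochondrial genes (1.02) and on recovered reads (1.34).

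Krt8, the type II keratin that pairs with Krt18 in simple epithelia, was the highest of the 10 genes in small intestine. It lies on chromosome 15 (101996698 to 102004482, minus strand). Its FPKM was 992 and 1197 in small intestine, 102 and 78.3 in lung and 90.3 and 75.6 in liver, with 34.0 and 35.0 in kidney. The small intestine mean of 1095 ± 145 FPKM was 12.1-fold the lung mean and 31.7-fold the kidney mean. The differences were 4.08 ± 0.15 in small intestine (adjusted p = 6.73e-07) and -2.51 ± 0.15 in kidney (adjusted p = 1.05e-05). Lung and liver overlapped and did not pass the test (0.11 ± 0.18, adjusted p = 0.581), but with median-of-ratios scaling liver was called higher than lung (-1.52). The step from liver to kidney was called (1.24 ± 0.18, adjusted p = 0.00120), but not without mitochondrial genes (0.66). Of the 31-base words of Krt8 transcripts, 36.05% also occur in other genes (32.2% in the processed copy Krt8-ps), and Krt8-ps had 2.89% to 4.20% of the Krt8 FPKM in each library. Reads of Krt8 and Krt8-ps may therefore have been split.

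Krt18, the type I partner of Krt8, was nearly level in 3 tissues and low in kidney. The gene lies next to Krt8 on chromosome 15 (102028180 to 102032027, plus strand), whereas the other type I keratins here are on chromosome 11. Its FPKM was 73.3 and 64.8 in small intestine, 63.7 and 63.6 in liver, 46.2 and 46.0 in lung, and 5.90 and 5.74 in kidney. The kidney libraries were below all others, with a difference of -3.13 ± 0.11 (adjusted p = 8.72e-07), and the lung mean was 7.93-fold the kidney mean. Small intestine and liver did not pass the test (0.11 ± 0.13, adjusted p = 0.488), and liver and lung differed by less than the fold threshold (0.46 ± 0.13, adjusted p = 0.0121). With median-of-ratios scaling the second of these differences was called (2.08) and the first changed sign (-0.76). Of its 31-base words 11.37% occur elsewhere, 9.31% in the gene Gm5200, which was listed at 0 in 7 libraries.

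Krt19, a type I keratin without the tail domain that other keratins carry, was high in small intestine and lung and low in kidney and liver. It lies on chromosome 11 (100140810 to 100148665, minus strand). Its FPKM was 349 and 359.8 in small intestine, 83.1 and 71.7 in lung and 1.82 and 1.46 in liver, with 1.38 and 1.62 in kidney. The mean in small intestine was 4.58-fold that in lung and 236-fold that in kidney. The differences were 5.47 ± 0.12 in small intestine (adjusted p = 1.88e-07), 2.56 ± 0.12 in lung (1.66e-06), -3.96 ± 0.12 in liver (2.45e-07) and -4.07 ± 0.12 in kidney (6.85e-07), all from limma with Benjamini-Hochberg adjustment. Liver and kidney overlapped (0.08 ± 0.15, adjusted p = 0.751).

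Krt20, the type I keratin of differentiated intestinal epithelium and of the bladder lining, was measured well above the trace range in small intestine alone. Its FPKM was 555 and 888 in small intestine, 1.49 and 0.543 in lung and 0.623 and 0.704 in liver, with 0.242 and 0.749 in kidney. The small intestine mean of 721 ± 235 FPKM was 710.3-fold the lung mean, with a limma difference of 8.70 ± 0.26. The libraries of lung, liver and kidney overlapped, and neither neighbouring pair among them was called (adjusted p = 0.510 and 0.730).

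The low values of Krt20 can be set beside those of other genes outside their tissue. In the 6 libraries of other tissues Krt20 had between 0.0336% and 0.206% of its small intestine mean, and Cdh17 between 0.0232% and 0.305%. The brush border enzyme gene Sis had between 0.0178% and 0.244%, the airway secretory gene Scgb1a1 between 0.0359% and 0.115% of its lung mean, the surfactant gene Sftpc between 0.0335% and 0.131%, and the albumin gene Alb between 0.0338% and 0.215% of its liver mean. Fabp2, a fatty acid binding protein of enterocytes, had between 0.0355% and 1.04% of its small intestine mean. In lung the gut genes were all higher in replicate 1, with Krt20 at 1.49 and 0.543 FPKM, Sis at 0.686 and 0.140 and Fabp2 at 11.99 and 2.502. This was not particular to gut genes, since Alb (0.215% and 0.122% of its liver mean) was also higher in lung replicate 1. So was the kidney transporter gene Slc34a1 (0.347% and 0.0608% of its kidney mean). In kidney Krt20, Cdh17, Sis, Fabp2, Alb, Sftpc and Scgb1a1 were all higher in replicate 2. Values below about 1 FPKM of Krt20 and Cdh17 outside small intestine are given as listed and are not read as expression. The source of these reads was not tested.

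The promoter of Krt20 is shown because, of the 10 genes, it had the largest difference between a tissue and the rest on the log2(FPKM + 1) scale. RefSeq promoter windows matched 5 of the 10 genes (Krt7, Krt8, Krt18, Krt20 and Epcam). The 250 bases before the Krt20 start are chr11:99438154-99438403 on the minus strand (GRCm38.p6), with a TATA box (TATAAA) in capitals, from 29 to 24 bases before the start.
Krt20: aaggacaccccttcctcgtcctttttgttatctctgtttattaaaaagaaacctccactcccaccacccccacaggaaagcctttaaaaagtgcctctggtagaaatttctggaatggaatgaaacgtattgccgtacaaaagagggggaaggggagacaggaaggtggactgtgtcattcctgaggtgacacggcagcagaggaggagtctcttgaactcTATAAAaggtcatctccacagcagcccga
TATAAA was present on either strand in 12.4% of the 32851 promoters searched. The other motifs searched on both strands, GTTAAT (HNF1 site, 6.43% of promoters), TTTATG (CDX site, 10.8%), GGGCGG (GC box, 32.7%), CAGGTG (the E-box bound by Snai factors, 17.2%) and AACCNGNTT (GRHL site, 2.01%), were not among the letters of this window. CAGGTG occurred in the windows of the other 4 matched genes, Krt7, Krt8, Krt18 and Epcam. The starts used for Krt8 and Krt18 lie 140 and 36 bases inside the transcript of the annotation used for lengths. The Krt8 match, 111 to 106 bases before the start, therefore lies within that transcript. A match of letters is a description and not a site of binding.

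Together the 5 keratins summed to 1975 and 2514 FPKM in small intestine, 268 and 229.6 in lung and 157 and 142 in liver, with 50.9 and 49.6 in kidney. Their make-up differed between the tissues. In liver Krt8 and Krt18 made up 55.5 ± 3.0% and 42.8 ± 3.0% of the sum (mean and SD of 2 libraries). In lung Krt8 held 36.1 ± 2.85%, Krt19 31.1 ± 0.149%, Krt18 18.6 ± 1.99% and Krt7 13.7 ± 0.933%. In small intestine Krt8 held 48.9 ± 1.85%, Krt20 31.7 ± 5.10%, Krt19 16.0 ± 2.38% and Krt18 3.14 ± 0.801%. In kidney Krt8 held 68.7 ± 2.79% and Krt7 15.7 ± 3.90%, with 11.6% for Krt18 in each library.

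**Figure D3:**
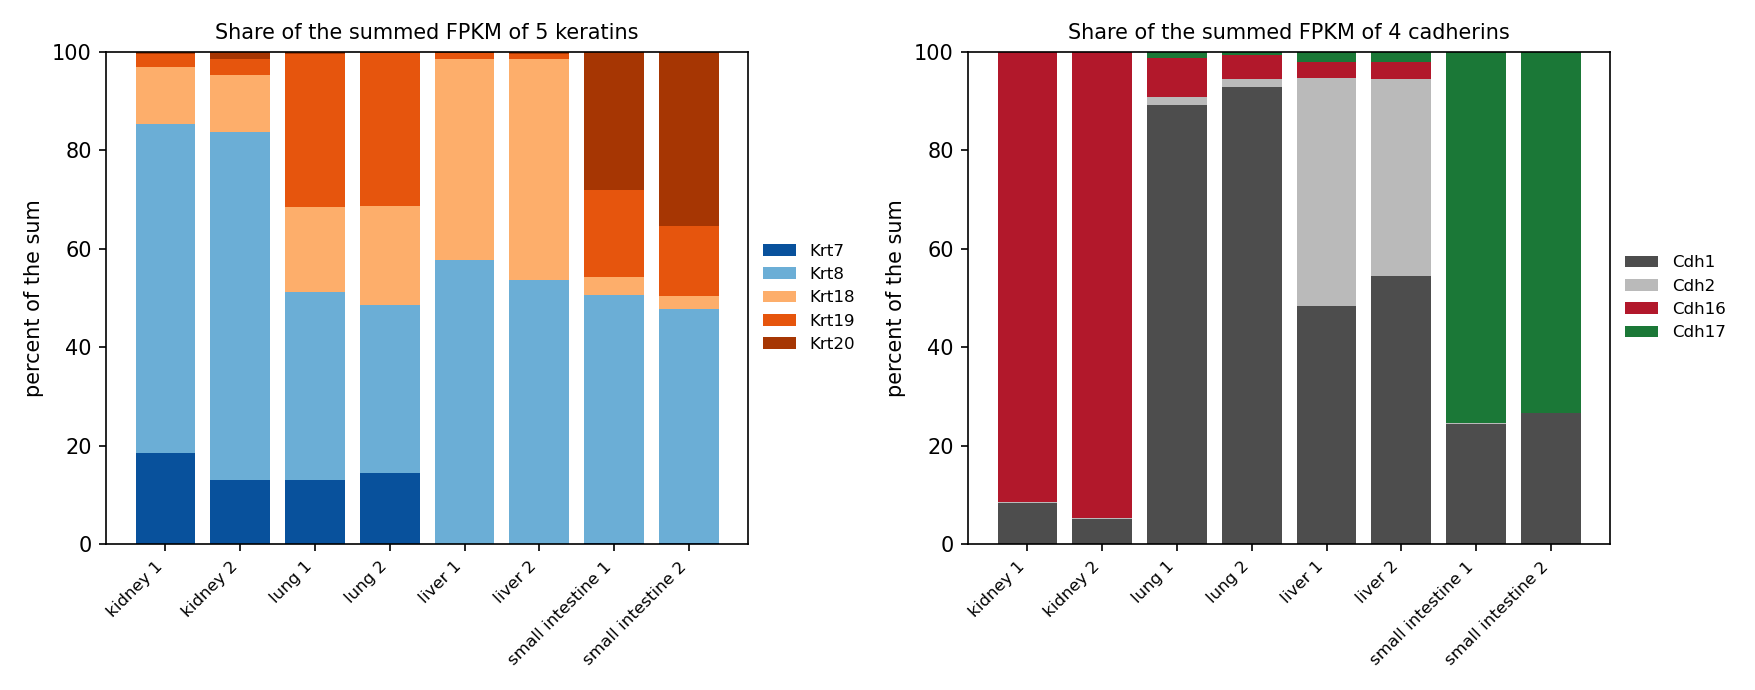
Percent of the summed FPKM of the 5 keratins (left; blue, type II; orange to brown, type I) and of the 4 cadherins (right) held by each gene in each library. Blue reaches close to 50% in lung and small intestine and 85.2% and 83.7% in kidney, and a different cadherin leads in kidney and small intestine than in lung.

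The type II keratins Krt7 and Krt8 and the type I keratins Krt18, Krt19 and Krt20 were close to equal in sum in 3 of the 4 tissues, although different genes made up the type I side. The ratio of the type II sum to the type I sum was 1.05 and 0.942 in lung, 1.02 and 0.916 in small intestine, and 1.37 and 1.15 in liver. In kidney it was 5.77 and 5.12. On the log2 scale the means were -0.01 ± 0.11 in lung, -0.05 ± 0.11 in small intestine, 0.33 ± 0.17 in liver and 2.44 ± 0.12 in kidney (SD, n = 2). Both kidney libraries lay outside the range of the other 6. A ratio within a library does not depend on the scaling between libraries. Over all ways to divide 8 libraries into pairs, 2 divisions, the true pairing and 1 other, held pairs as close as those of the tissues (exact p = 0.0190, one-sided; 0.0190 after Benjamini-Hochberg adjustment over 5 ratios). With all keratins of the table on both sides the kidney mean was 1.95 and the lung mean 0.34.

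**Figure D4:**
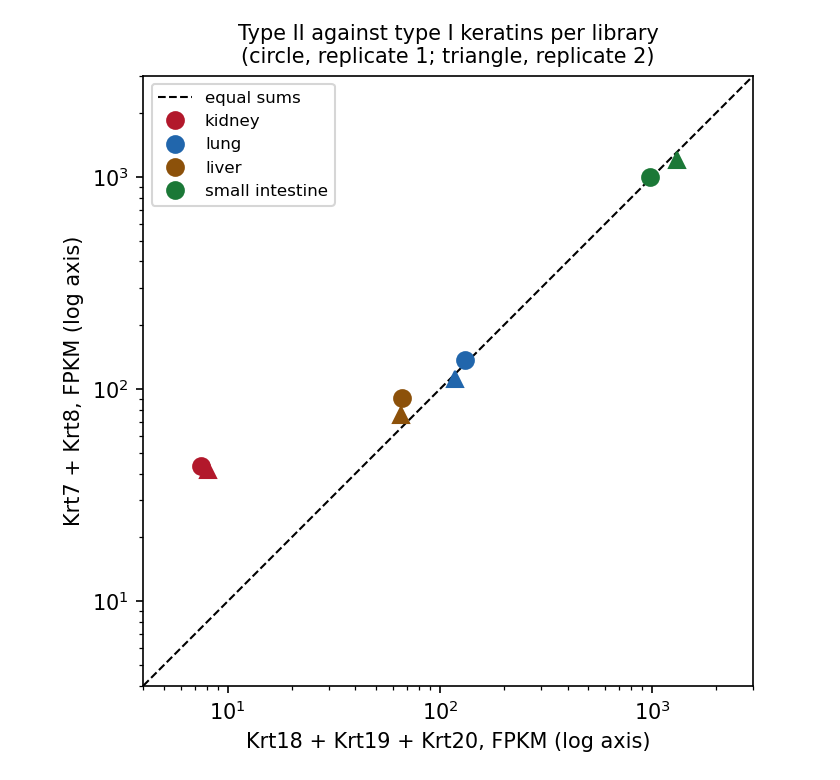
Summed FPKM of the type II keratins Krt7 and Krt8 (vertical axis) against that of the type I keratins Krt18, Krt19 and Krt20 (horizontal axis) in each library, on log axes of equal scale, with a dashed line at equal sums. The libraries of lung, liver and small intestine lie at ratios between 0.916 and 1.37, and the kidney libraries lie above the line at 5.77 and 5.12.

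The ratio of Krt8 to Krt18 alone was far from constant. It was 1.42 and 1.19 in liver, 2.21 and 1.70 in lung, 5.77 and 6.11 in kidney, and 13.5 and 18.5 in small intestine. The ratio of Krt19 to Krt18 was 4.77 and 5.55 in small intestine, 1.80 and 1.56 in lung, 0.235 and 0.282 in kidney, and 0.0286 and 0.0230 in liver. For both ratios the true pairing of libraries was the tightest of all (exact p = 0.00952, the smallest this test can give; adjusted 0.0119). Kidney and small intestine thus shared an excess of Krt8 over Krt18, but in small intestine Krt19 and Krt20 brought the type I sum to 977 and 1312 FPKM, while in kidney it was 7.52 and 8.10.

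The levels of other cell types in these tissues are given beside the keratins. In lung, where Krt7 and Krt19 were called higher, the 5 mesothelium genes summed to 104 and 74.0 FPKM, with Msln, a defining marker, at 68.2 and 40.5. The same list summed to 31.2 and 28.1 in kidney, where Gpm6a gave 28.5 and 26.8. Msln, Upk3b and Lrrn4 were higher in lung than in kidney, whereas Wt1 and Gpm6a were higher in kidney than in lung. In kidney, where Krt7 was 9.43 and 6.44, the 6 urothelium genes summed to 12.8 and 13.0, with Upk2 at 0.947 and 0.480. Psca gave 7.27 and 9.54 of that sum and was listed at 0 in both lung libraries. The urothelium list was higher in lung (26.1 and 28.2), where Upk1b alone gave 22.6 and 23.4. In liver, where Krt7 and Krt19 mark bile ducts rather than hepatocytes, the 6 bile duct genes summed to 40.7 and 64.4, of which Spp1 gave 33.9 and 57.4, Sox9 1.19 and 0.586 and Cftr 0.0422 and 0.0249. That list is not particular to liver, since it summed to 349.7 and 325 in kidney, 154 and 71.4 in lung, and 954 and 27.2 in small intestine. The part of these cells in the keratin levels was not tested.

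Epcam was highest in small intestine, at 548 and 721 FPKM. It was 40.0 and 35.2 in kidney, 38.2 and 32.7 in lung, and 2.35 and 1.52 in liver. The gene lies on chromosome 17 (87635979 to 87651129, plus strand). The small intestine mean of 635 ± 122 FPKM was 16.9-fold the kidney mean and 328-fold the liver mean, and the liver libraries were below all others. The differences were 5.30 ± 0.17 in small intestine (adjusted p = 3.86e-07) and -5.04 ± 0.17 in liver (adjusted p = 3.30e-07). Kidney and lung overlapped and did not pass the test (0.08 ± 0.20, adjusted p = 0.732), while with median-of-ratios scaling kidney was called higher than lung (1.15). The liver values of Epcam were the 2 of the 24 low values that did not come out as whole reads, so their read numbers are approximate.

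The promoter of Epcam is shown beside that of Krt20 because both genes peaked in small intestine but Epcam was also above 30 FPKM in lung and kidney. The 250 bases before its start are chr17:87635729-87635978 on the plus strand (GRCm38.p6). Capitals mark, from left to right, CAGGTG on the minus strand (187 to 182 bases before the start), GGGCGG on the minus strand (58 to 53), TTTATG on the minus strand (28 to 23) and CAGGTG on the plus strand (19 to 14).
Epcam: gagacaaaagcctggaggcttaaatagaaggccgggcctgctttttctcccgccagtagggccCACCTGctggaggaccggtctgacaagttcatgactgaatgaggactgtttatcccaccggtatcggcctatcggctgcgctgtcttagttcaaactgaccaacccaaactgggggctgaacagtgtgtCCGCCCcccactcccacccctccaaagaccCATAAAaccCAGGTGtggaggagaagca
TATAAA, the motif marked in the Krt20 window, was not among the letters of this window.

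Cdh1, the E-cadherin gene, was present in all 4 tissues within a range of 10.3-fold between the highest and the lowest mean. It lies on chromosome 8 (106603351 to 106670246, plus strand). Its FPKM was 52.5 and 72.0 in small intestine, 39.3 and 42.4 in lung, 20.6 and 9.94 in kidney, and 5.08 and 7.01 in liver. The differences were 1.92 ± 0.26 in small intestine (adjusted p = 6.15e-04) and -2.29 ± 0.26 in liver (adjusted p = 1.73e-04). The lung difference of 1.15 ± 0.26 (adjusted p = 0.00460) was called, but it fell to 0.03 with median-of-ratios scaling, 0.64 with quantile normalization, 0.82 without mitochondrial genes and 0.99 without kidney replicate 2, and was not called in any of the 4. Small intestine and lung did not pass the test (0.58 ± 0.32, adjusted p = 0.153), but did with median-of-ratios scaling (1.33).

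The kidney libraries of Cdh1 were 2.07-fold apart, a larger gap than that of 93.8% of the genes tested. Cdh1 has 4574 exonic bases, and genes of 4000 to 8000 bases were 1.48-fold higher in kidney replicate 1 (median of 3214 genes). The proton pump gene Atp6v1b1 of intercalated cells was 17.0 and 6.90 FPKM in these libraries and the endocytic receptor gene Lrp2 of proximal tubules 65.5 and 26.1, and the 5 collecting duct genes summed to 252 and 228, of which the water channel gene Aqp2 (80.1 and 119.9) was higher in replicate 2 and the other 4 were lower. The part of transcript length or of tissue make-up in the gap was not tested. In kidney Cdh1 stood at -0.78 ± 0.26 (adjusted p = 0.0380), under the fold threshold, and without kidney replicate 1 it was called lower (-1.27, adjusted p = 0.00459). The step from lung to kidney (1.44 ± 0.32, adjusted p = 0.00482) was not called without kidney replicate 2 (0.95) or under the 3 scalings that ended the lung call (0.39, 0.94 and 0.77). The step from kidney to liver (1.14 ± 0.32, adjusted p = 0.0266) was not called without kidney replicate 1 (0.65), liver replicate 1 (0.94) or liver replicate 2 (1.34, adjusted p = 0.0525). It was also not called without the filter (adjusted p = 0.0708) or with median-of-ratios scaling (0.66), quantile normalization (0.75) or scaling to the same sum with mitochondrial genes kept (0.98).

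Cdh2, the N-cadherin gene of nerve, muscle and mesenchymal cells that hepatocytes are also known to carry, was highest in liver. It lies on chromosome 18 (16588877 to 16809246, minus strand). Its FPKM was 4.86 and 5.16 in liver, 0.787 and 0.798 in lung, 0.676 and 0.501 in kidney, and 0.132 and 0.0985 in small intestine. The liver mean of 5.01 ± 0.217 FPKM was 6.32-fold the lung mean and 43.4-fold the small intestine mean, and the liver difference was 2.03 ± 0.11 on the log2(FPKM + 1) scale. The difference in small intestine was -1.21 ± 0.11, against a mean that includes liver. Lung and kidney did not pass the test (0.18 ± 0.14, adjusted p = 0.275), and kidney and small intestine differed by less than the fold threshold (0.51 ± 0.14, adjusted p = 0.0177) although their means were 5.10-fold apart, and this pair was called at a pseudocount of 0.1 (1.67) and on recovered reads (2.30). In lung, the 5 cardiac muscle genes summed to 217 and 223 FPKM beside a Cdh2 level under 1 FPKM, and the part of heart tissue in that level was not tested.

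The balance of E-cadherin to N-cadherin followed the tissues. The ratio of Cdh1 to Cdh2 was 396 and 730.3 in small intestine, 49.9 and 53.1 in lung, 30.5 and 19.8 in kidney, and 1.05 and 1.36 in liver. In small intestine it rests on 10 and 9 reads of Cdh2, so its size there is loose. The true pairing of libraries was the tightest of all, but no p is given, since Cdh2 passed the filter through liver alone. By these values liver was the tissue in which the 2 genes stood at similar FPKM. Its log2 ratio of 0.25 ± 0.27 turned to -0.44 when the longest coding transcript replaced the exon union as the length, since the union of Cdh2 is 1.67-fold its longest coding transcript. The ratio of Epcam to Cdh1 was 10.4 and 10.0 in small intestine, 1.94 and 3.54 in kidney, 0.972 and 0.772 in lung, and 0.463 and 0.217 in liver (exact p = 0.00952, adjusted 0.0119).

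Cdh16, known as kidney-specific cadherin, was 224 and 187 FPKM in kidney. Both lung libraries came next with 3.48 and 2.19 FPKM, the small intestine libraries held 0.197 and 0.0466, and the liver libraries 0.345 and 0.434. It lies on chromosome 8 (104601911 to 104624396, minus strand). The kidney mean of 205 ± 26.5 FPKM was 72.5-fold the lung mean, with a difference of 6.83 ± 0.18 (adjusted p = 5.60e-07). The step from lung to liver was called (1.44 ± 0.22, adjusted p = 4.59e-04), but not with median-of-ratios scaling (0.60) or quantile normalization (0.23). Liver and small intestine did not pass the test (0.31 ± 0.22, adjusted p = 0.251), but did at a pseudocount of 0.1 (1.22). The lung value was up to 1.70% of the kidney mean, while Slc34a1, the phosphate transporter of proximal tubules, was at most 0.347% of its kidney mean in the other tissues.

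Cdh17, known as liver-intestine cadherin, was 162 and 198 FPKM in small intestine. It was 0.549 and 0.342 in lung and 0.220 and 0.281 in liver, with 0.0417 and 0.116 in kidney. It lies on chromosome 4 (11758147 to 11817895, plus strand). The small intestine mean of 180.1 ± 25.9 FPKM was 404-fold the lung mean, and the difference was 7.17 ± 0.15 on the log2(FPKM + 1) scale. Lung and liver (0.21 ± 0.18, adjusted p = 0.329) and liver and kidney (0.21 ± 0.18, adjusted p = 0.418) did not pass the test. In liver the level was within the range of traces given for Krt20.

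The leading cadherin of the 4 differed between kidney, lung and small intestine. Cdh16 made up 91.3% and 94.6% of their summed FPKM in kidney, and Cdh1 89.1% and 92.7% in lung. Cdh17 made up 75.4% and 73.3% in small intestine, with nearly all of the rest in Cdh1 at 24.5% and 26.6%. In liver Cdh1 and Cdh2 held 48.4% and 54.4% and 46.2% and 40.1% of a sum of 10.5 and 12.9 FPKM.

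The small intestine libraries also held transcripts of the exocrine pancreas, which are given beside the called differences there. The 5 pancreatic acinar genes found in the table summed to 1798 and 811 FPKM in small intestine and to at most 3.75 elsewhere, with the protease precursor gene Ctrb1 at 1009 and 446. The trefoil factor gene Tff2 of mucous glands was 935 in replicate 1 and 7.56 in replicate 2. The genes peaking in small intestine were lower in replicate 1 for Krt8, Krt19, Krt20, Epcam, Cdh1 and Cdh17, as were the enterocyte genes Sis (217 and 346) and Vil1 (381 and 523), and higher for Krt18 (73.3 and 64.8). All 7 genes called higher in small intestine stayed above the fold threshold without either library of that tissue, except that Cdh17 then no longer passed the filter on low values. The part of pancreas or gland tissue was not tested.

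For each gene the other genes with the most similar pattern were found by the Pearson correlation of log2(FPKM + 1) over the 8 libraries, among 7082 genes with a mean FPKM of at least 10 in some tissue. The points are 4 tissues with 2 libraries each, so these values describe likeness over 4 tissues. Krt20 was most like Sis (r = 0.9997) and Myo1a, a myosin of the brush border, and Cdh17 was most like Clec2e (r = 0.9998) and Gpa33, an intestinal surface antigen. Epcam was most like Marveld3 (r = 0.999), a tight junction protein, at 12.8 and 13.1 FPKM in small intestine, 3.27 and 2.96 in kidney, 3.34 and 2.82 in lung and 0.465 and 0.206 in liver. Cdh16 was most like Fxyd4 (r = 0.998), an ion transport regulator, and Nccrp1. Krt19 was most like Actg2 (r = 0.999), a smooth muscle actin, and Prkg2. Krt7 was most like Ly6c1 (r = 0.998), a surface protein of endothelial and blood cells, and Tmem159. Cdh1 was most like Src (r = 0.995), a tyrosine kinase, and Myo1d. Krt8 was most like its copy Krt8-ps (r = 0.996) and Chp2. Krt18 had no gene above 0.99 and was most like Gstp3 (r = 0.985) and Lgals9, while Cdh2 was most like the liver lectin gene Mbl1 (r = 0.989) and the vitamin E transfer gene Ttpa.

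The other keratins were highest in sum in lung. Their counts and those of the lists that follow stand against the shares of all genes called: 40.7% higher and 8.26% lower in lung, 6.56% and 32.7% in liver, 8.65% and 16.1% in kidney, and 13.7% and 11.3% in small intestine. The medians of all genes were 0.82 in lung and -0.72 in liver. The shares under median-of-ratios scaling are those given for the 10 genes. Some listed genes passed the filter through 1 tissue alone, such as Krt79 and Krt17 (1.06 and 1.04 FPKM) through lung, so all these counts are descriptions, and a list near the shares of all genes does not stand apart. Of 49 further keratin genes in the table, 19 were listed at 0 in all libraries and 6 passed the filter. Their summed FPKM was 65.8 and 57.2 in lung, 6.60 and 4.65 in kidney, 6.29 and 5.75 in small intestine, and 1.5 and 1.18 in liver. Krt80 gave 39.5 and 35.2 FPKM in lung and at most 2.29 elsewhere, Krt79 10.8 and 7.29, and Krt23 6.41 and 6.89. In lung 5 of the 6 were called higher, and 2 with median-of-ratios scaling (median 1.39). In liver 4 were called lower (1 with that scaling; median -1.05), and in kidney 2 and in small intestine 2 were called lower (0 and 1).

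Partners of Epcam were called mostly higher in small intestine and lower in liver, as Epcam was. The list held 7 genes, among them the claudin Cldn7, which binds Epcam, and the protease St14 with its inhibitors Spint1 and Spint2. In small intestine 4 were called higher and 1 lower (median 2.10, against -0.01 for all genes), and in liver all 7 were called lower (6 with median-of-ratios scaling; median -2.83, against -0.72). Cldn7 was 264 and 319.6 FPKM in small intestine, 23.4 and 22.2 in lung, 8.02 and 6.73 in kidney, and 0.840 and 0.746 in liver. Spint1 was 87.3 and 113 in small intestine and 0.394 and 0.385 in liver. In lung 3 of the 7 were called higher, led by the tetraspanin Cd9 and the hyaluronan receptor Cd44, and in kidney 1 was higher and 2 were lower.

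Catenins and other proteins of the adherens junction plaque, on which Cdh1 and Cdh2 depend, numbered 11. In small intestine 3 were called higher and none lower, led by Nectin2 (30.5 and 34.4 FPKM) and the p120 catenin gene Ctnnd1. In lung 7 were called higher and none lower (median 1.28, against 0.82 for all genes), and with median-of-ratios scaling 2 were higher and 1 lower. In liver 8 were called lower, led by Jup (plakoglobin) and Ctnna1, but 1 with median-of-ratios scaling. In kidney 2 were called lower with either scaling, close to the share over all genes.

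Desmosome genes, whose proteins anchor keratin filaments at the cell surface, numbered 9. In small intestine 6 were called higher and 1 lower, led by the desmocollin Dsc2 and the plakophilin Pkp3 (median 1.79). Dsc2 was 18.0 and 27.5 FPKM in small intestine, 6.91 and 5.34 in liver, 0.388 and 0.640 in lung, and 0.380 and 0.153 in kidney. Its partner Dsg2 was 13.4 and 24.7 in small intestine, 8.24 and 12.1 in liver, 1.70 and 1.64 in lung, and 1.15 and 0.454 in kidney. In liver 2 were called higher and 2 lower, in kidney 3 lower and in lung 1 higher and 3 lower. Pkp3 was called lower in liver (0.0604 and 0.241 FPKM, -2.78, adjusted p = 2.88e-05).

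Hemidesmosome and epithelial integrin genes, which tie keratins to the basement membrane, numbered 9 after the filter. In lung 7 were called higher (4 with median-of-ratios scaling; median 1.90), among them the laminin chain Lamb3, and in liver 8 were called lower (5 with that scaling; median -1.61), led by the integrins Itga6 and Itga3. In small intestine 4 were called higher, led by Itgb4 (12.5 and 12.4 FPKM) and the keratin linker Plec, and in kidney 4 were called lower.

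Of the other cadherins 8 of 13 in the table passed the filter. In small intestine 3 were called higher, led by the brush border protocadherins Cdhr2 (200.2 and 216 FPKM) and Cdhr5 (311 and 379), and 2 lower (1 with median-of-ratios scaling). Cdhr5 was also called higher in kidney (48.5 and 44.2 FPKM), where 3 were lower (1 with median-of-ratios scaling). In lung 6 were called higher and 2 lower (5 and 2 with that scaling; median 2.27), among them Cdh5 of endothelial cells at 126 and 149 FPKM, and the 5 endothelium genes, Cdh5 included, summed to 307 and 372 there and at most 26.2 elsewhere. In liver 5 were called lower (3 with that scaling; median -1.19) and none higher.

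Among 13 epithelial transcription and splicing regulators tested, 8 were called higher in small intestine and none lower, with either scaling. The intestinal factor Cdx1 was 55.6 and 62.2 FPKM there and at most 0.176 elsewhere, and Cdx2 was 23.9 and 27.5 and listed at 0 in 5 of the other 6 libraries. In kidney 2 were called higher, among them Hnf4a (93.8 and 62.2 FPKM), and 4 lower. In liver 2 were higher and 7 lower, and in lung 2 were higher and 5 lower (0 and 7 with median-of-ratios scaling), with Hnf4a at 0.764 and 0.350 there. Esrp1, a splicing factor of epithelial cells, was 7.32 and 7.33 in small intestine, 3.41 and 3.46 in lung, 1.49 and 0.770 in kidney, and 0.0173 and 0.108 in liver. Grhl2, a transcription factor known to act on Cdh1, was 1.69 and 1.96 in lung, 0.868 and 1.07 in small intestine, 0.693 and 0.221 in kidney, and 0.0380 and 0.0112 in liver.

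Of the mesenchymal regulators and filament genes all 7 tested were called higher in lung, and 4 with median-of-ratios scaling (median 2.30). Vim, the intermediate filament gene of mesenchymal cells, was 239 and 228 FPKM in lung, 16.0 and 12.03 in small intestine, 5.31 and 5.10 in kidney, and 3.61 and 6.25 in liver. The Cdh1 repressor genes Zeb1 (6.34 and 7.31), Zeb2 (5.99 and 4.04), Snai1 (8.78 and 11.3) and Snai2 (5.45 and 6.81) had higher FPKM in lung than in any library of the other tissues, and Snai2 was next highest in liver (3.98 and 3.96). Cdh1 was itself 39.3 and 42.4 in lung. The 5 fibroblast genes summed to 188 and 168 FPKM there and the 5 leukocyte genes to 103 and 150.1, against at most 39.1 and 25.2 elsewhere, and the part of these cells was not tested. In kidney 4 of the 7 were called lower, in liver 1 was higher (Fn1, made by hepatocytes) and 3 lower (3 and 2 with median-of-ratios scaling), and in small intestine 1 was higher (Des, of smooth muscle) and 3 lower.

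Keratin-binding and turnover genes numbered 8. In small intestine 3 were called higher and 1 lower, led by the disulfide isomerase gene Agr2 (199.8 and 169.6 FPKM) and Pof1b. In lung 5 were called higher and none lower, led by the small heat shock gene Hspb1 (189 and 133) and Trim29, but with median-of-ratios scaling 2 were higher and 2 lower (median 1.42 before that scaling). In liver 3 of the 8 were called lower (median -0.88), close to the share over all genes, and 2 with median-of-ratios scaling. In kidney 3 were called lower, against 16.1% of all genes.

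**Figure D5:**
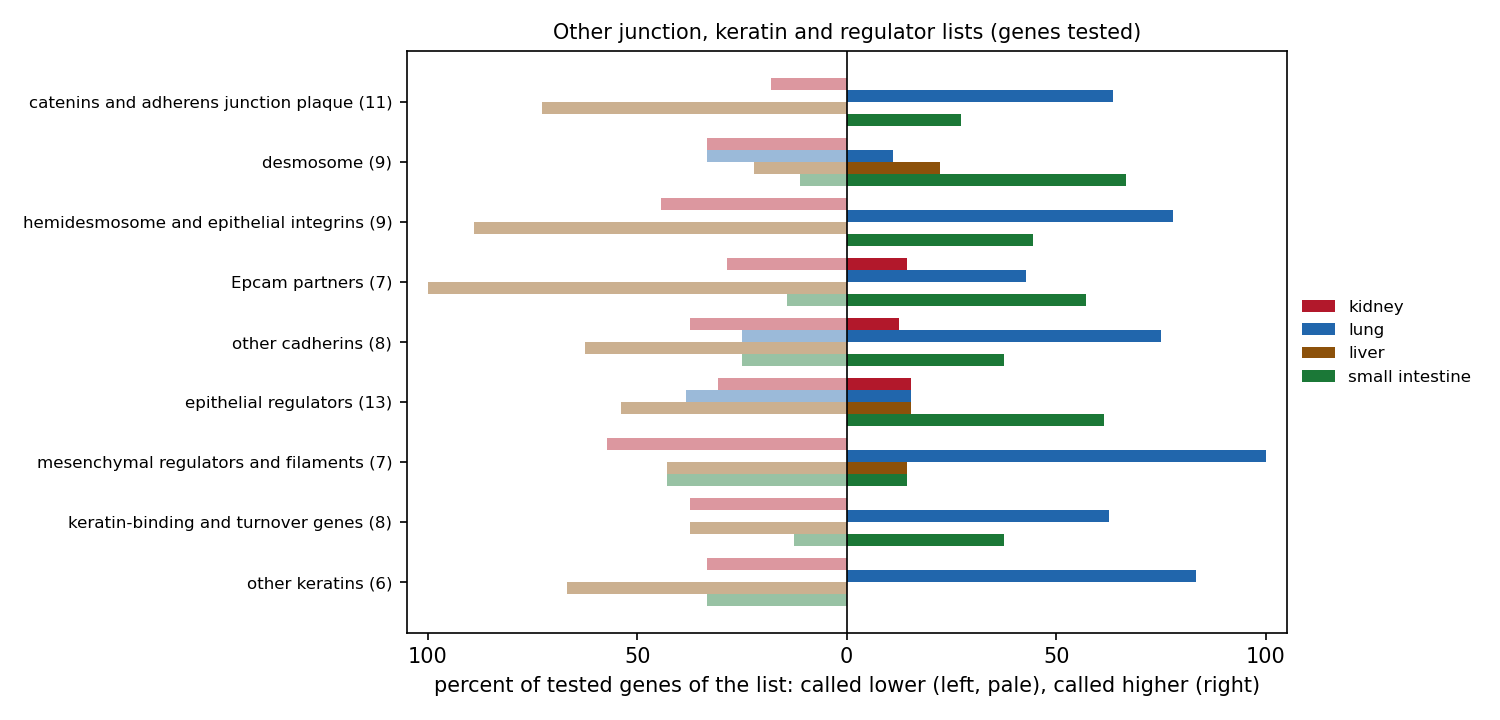
Percent of the tested genes of each list that were called higher (right of 0, full colour) or lower (left of 0, pale) in each tissue, with the number of genes tested in parentheses and the 10 genes of this report left out. Small intestine shows bars to the right for Epcam partners, desmosome genes and epithelial regulators, and liver shows all 7 Epcam partners and 8 of 9 hemidesmosome genes to the left.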

How the data were processed

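The deposited table held 1 file of FPKM for 8 libraries. Per the paper's methods, the authors selected reads by sample index with bbduk, mapped them with STAR 2.5.3a under default parameters to the Ensembl mouse genome (release 75, GRCm38) and deposited FPKM from DESeq2 (fpkm function). The program that counted reads, its use of strand and its handling of reads with several matches are not given in the sources used here. A few abundant transcripts lower the FPKM of all other genes of a library, and FPKM of a gene is divided by its exon union, which for Krt7 is 1.72-fold and for Cdh2 1.67-fold the longest coding transcript. Lengths and positions came from GENCODE M21, in which 51847 genes (99.33%) had a single match by symbol, and promoters from RefSeq (GRCm38.p6).

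The 10 genes, the gene lists and the tests were chosen with earlier results of these data known. Groups were taken from the sample labels. The 16328 genes that reached an FPKM of 1 in 2 or more libraries were fitted as log2(FPKM + 1) with limma 3.58.1 (lmFit, eBayes with trend) in R 4.3.3, in 1 fit of all 8 libraries, with Benjamini-Hochberg adjustment over all genes. Single values were tested by exact permutation over libraries, and 5 ratios within a library over all divisions into pairs, one-sided. The limma step was tested on simulated counts with known changes. Descriptions used scipy 1.17.1, pandas 2.3.3 and numpy 2.4.6 under Python 3.11.15, and figures matplotlib 3.10.9. Named genes were the 10, the 2 most alike in pattern to each, the 2 with the largest called difference per list and tissue, the 3 highest other keratins, 8 set regulators and related genes, and the genes of the cell type lists, of which some are not reported here. The kidney classes by transcript length and the comparison of trace levels were chosen after values were seen.

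The differences between replicate 1 and replicate 2 correlated between tissues at -0.22 to 0.05. Effects of single libraries, such as the length difference in kidney, also enter these differences. Whether the numbers in the labels pair libraries by mouse can therefore not be told from them. Alternatives changed the pseudocount (0.1), the filter, the scaling, the trend, the replicate block, the fold threshold, the unit (limma-voom on reads recovered for 16186 genes) and the libraries included. Added after seeing the data were scaling to the same sum, the longest coding transcript as length, Krt8 with Krt8-ps, and all keratins for the type II to type I ratio. The lone library of a tissue was then assumed to vary like the others.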

Additional observations from a re-analysis of the deposited data

How the results depend on the processing

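Of the 40 differences between a tissue and the rest (10 genes, 4 tissues), 29 were called. Of their 510 values under the alternatives, 506 kept direction and call, none changed sign, and 4 fell short of the threshold, all of Cdh1 in lung. Of the 29, 10 were of Krt20, Cdh2 and Cdh17, whose calls restate the tissue through which they passed the filter, and for the other 19 the count was 338 of 342. Those 19 include the lower calls of Cdh16, which are against a mean that includes kidney. Of 194 values of the other differences 21 passed the threshold and 14 changed sign; the cause was not tested. The number called higher in kidney became 2 (main value 1) at a pseudocount of 0.1, without mitochondrial genes, on recovered reads and without a fold threshold. The number called lower in lung (2) became 5 with median-of-ratios scaling, 4 with quantile normalization, 4 without mitochondrial genes and 5 without a fold threshold, and ranged from 1 to 3 when a library was left out. The number called higher in liver and lower in small intestine ranged from 1 to 2 when a library was left out, since Cdh2 then failed the filter without a liver library, as Cdh17 did without a small intestine library. With the replicate block the numbers called higher stayed at 7 in small intestine, 3 in lung, 2 in liver and 1 in kidney, 16 neighbouring pairs were called, and no call changed.

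The sign changed in these differences that were not called. Krt7 in small intestine was 0.24 at a pseudocount of 0.1 and 0.41 on recovered reads, and Cdh16 in lung 0.057 and 0.39. Cdh2 in lung was 0.17 on recovered reads and Epcam in lung 0.17 at the same sum with mitochondrial genes kept. Epcam in kidney was 0.087 at a pseudocount of 0.1, 0.28 with median-of-ratios scaling, 0.11 with quantile normalization, 0.50 without mitochondrial genes and 0.11 on recovered reads. With median-of-ratios scaling Krt8 in liver was 0.16 and Krt18 in lung -0.55. Among neighbouring tissues, median-of-ratios scaling and quantile normalization gave -1.52 and -0.18 for Krt8 (lung minus liver), -0.76 and -0.31 for Krt18 (small intestine minus liver), -0.48 and -0.83 for Krt20 (lung minus liver), -0.23 and -0.58 for Cdh2 (lung minus kidney) and -0.20 and -0.61 for Cdh17 (lung minus liver). Without mitochondrial genes the values were -0.0102 for Krt8, -0.29 for Krt19 (liver minus kidney), -0.0303 for Krt20 (liver minus kidney) and -0.12 for Cdh2, and Epcam (kidney minus lung) was -0.35 at the same sum with mitochondrial genes kept. The log2 ratio of Cdh1 to Cdh2 in liver was -0.44 with the longest coding transcript. When a library was left out, the values ranged from -0.16 to 0.017 for Epcam in kidney and, between neighbours, from -0.077 to 0.30 for Krt8, -0.021 to 0.18 for Krt19, -0.11 to 0.58 and -0.073 to 0.42 for the Krt20 pairs and -0.025 to 0.19 for Epcam.

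Depth limits the low levels: 24 of 80 values rest on under 50 reads. With 2 libraries per tissue, p-values from limma rest on a spread shared by the 4 tissues, and no single gene can pass a permutation test corrected for many genes. Intervals between mice cannot be given from read numbers.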
